A study of Mus musculus with 2 samples.

Results

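Malat1, Neat1, Tug1, Miat, Firre and Pvt1 are long noncoding RNAs (lncRNAs) known for acting in the nucleus, and their levels were taken from RNA-Seq libraries of mouse neural stem cells (NSCs). The 6 lncRNAs were picked by name from the 8714 lncRNAs of the expression table, with no threshold on their values but with earlier results of these data known, and each of the 6 names was found in it. All 6 were expressed above FPKM 1 in both libraries, as were 3.28% of all lncRNAs and 47.7% of the known genes in a second table. FPKM counts the fragments of an RNA per length of its transcript and per number of mapped fragments. Malat1 was the highest with an FPKM of 275 ± 92.1 (SD, n = 2 libraries), and the other members lay between 6.78 and 27.7.

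The samples were 2 replicate libraries of 1 condition, so the design holds no comparison between conditions. The cells came from the cortex of CD-1 mouse embryos at E14.5 and were grown as monolayers in medium that held 20 ng/ml of both growth factors, EGF and FGF. They are a passaged culture and not tissue, and the labels give no difference in genotype or treatment between the libraries. The study calls the NSC replicates biological, but separate cultures are not named in the labels, and the SD given here is the spread between these libraries.

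As background, lncRNAs are transcripts with little or no coding capacity, and several of them take part in building nuclear bodies or arranging chromosome regions. Malat1 collects in nuclear speckles, domains rich in splicing factors, and Neat1 is the scaffold on which paraspeckles form. Miat, also called Gomafu, forms its own nuclear spots in neurons and binds splicing factors. Firre is made from the X chromosome and binds Hnrnpu through repeats in its sequence. Tug1 was first described in the developing mouse retina and was found bound to Polycomb repressive complex 2 in human cells, and Pvt1 lies beside the oncogene Myc. The location of the RNAs within the cell was not measured here.

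The libraries were made from polyadenylated RNA, so the 3′ ends of the members bear on what could be captured. The last 60 bases of the longest transcript of each member in the GENCODE M21 annotation of mouse genome build GRCm38 are given next, 5′ to 3′ on the transcript strand. Capitals mark the polyadenylation signal AATAAA or its variant ATTAAA, and in Neat1-201 they mark an A-rich tract instead. The shorter Neat1-202 of 3004 bases is added because Neat1 has a short form with an ordinary poly(A) tail.

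Malat1-201, chr19:5795690-5795749, minus strand: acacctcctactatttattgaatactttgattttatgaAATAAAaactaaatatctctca

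Neat1-201, chr19:5824708-5824767, minus strand: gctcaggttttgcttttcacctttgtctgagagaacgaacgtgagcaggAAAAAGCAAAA

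Neat1-202, chr19:5842307-5842366, minus strand: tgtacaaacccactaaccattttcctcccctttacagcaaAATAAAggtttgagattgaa

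Tug1-201, chr11:3639785-3639844, minus strand: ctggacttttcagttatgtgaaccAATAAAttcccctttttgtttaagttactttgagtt

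Miat-205, chr5:112213228-112213287, minus strand: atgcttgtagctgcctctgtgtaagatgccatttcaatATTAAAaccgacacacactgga

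Firre-206, chrX:50563125-50563184, minus strand: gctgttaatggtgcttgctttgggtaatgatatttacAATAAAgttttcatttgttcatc

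Pvt1-202, chr15:62378037-62378096, plus strand: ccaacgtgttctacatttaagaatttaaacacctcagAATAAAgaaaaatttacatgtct

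Of the 7 ends, 6 held a signal, which stood 14 to 30 bases before the last base. Over the 18927 lncRNA transcripts of the annotation, the last 60 bases held either signal in 39.2%, searched on the transcript strand. AATAAA was found there in 30% and ATTAAA in 11.4%. The sole end without either was that of the long Neat1-201, which closes with the 11 letters AAAAAGCAAAA. That tract stood in the last 60 bases of 5 of the 18927 transcripts (0.0264%) and anywhere in 77 (0.407%). The members' own transcripts were not left out of these counts, which take every lncRNA transcript and not the longest of each gene. Letters at an end are a description of the annotation and not a measurement of where the RNAs of these cells ended.

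Malat1 holds the same tract, 292 bases before the end of Malat1-201. RNase P is known to cut both RNAs behind this tract, after which the A-rich tract folds with upstream U-rich stretches into a triple helix that stands in for a poly(A) tail. The 110 bases that end with the tract are shown because Malat1 and Neat1 share runs of letters within them, and the shared runs of at least 10 bases are in capitals.

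Malat1, chr19:5795982-5796091, minus strand: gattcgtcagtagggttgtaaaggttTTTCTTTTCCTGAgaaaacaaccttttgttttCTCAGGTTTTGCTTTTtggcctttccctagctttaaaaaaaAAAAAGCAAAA

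Neat1, chr19:5824708-5824817, minus strand: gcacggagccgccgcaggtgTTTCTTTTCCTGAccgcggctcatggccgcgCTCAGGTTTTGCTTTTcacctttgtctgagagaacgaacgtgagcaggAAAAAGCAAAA

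There were 3 such runs, of 16, 13 and 11 bases. The run of 11 bases is the tract itself, at which both stretches were cut, so it is shared and last by choice. The runs of 16 and 13 bases stood in the same order in both RNAs, and the rest of the stretch differs. Before the GC of the tract, Malat1 had 12 A in a row and Neat1 5. An RNA that ends behind this tract carries a genomically encoded stretch of A in place of an added tail, and how far oligo(dT) captured such ends in these libraries was not tested.

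The members differ in build. The longest transcripts of Malat1 (6983 bases) and Neat1 (20771 bases) are single exons, Tug1-201 has 2 exons over 6719 bases, Miat-205 7 exons over 9163 bases and Pvt1-202 10 exons over 3319 bases. Firre-206 has 20 exons over 5555 bases. Between 4 transcripts for Malat1 and Neat1 and 10 for Firre and Pvt1 are annotated, and the FPKM used here is 1 value per gene, so it does not separate the short from the long form of Neat1.

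Firre stands apart in its repeats. Of the 25-base words of Firre-206, 28.4% occurred more than once in it, against 0.834% in Neat1-201, 0.0747% in Tug1-201, 0.0219% in Miat-205 and none in Malat1-201 and Pvt1-202. Among 9062 lncRNA transcripts of 1000 bases or more, 25 (0.276%) were at least as repeated, and 6782 (74.8%) held no repeated word. Transcripts of Firre and the other members were not left out of these counts. The longest stretch that Firre-206 holds more than once without a mismatch is 123 bases long and is shown because such repeats are what Firre is known for. It lies at bases 1286 to 1408 (chrX:50595461-50595583) and again at 3745 to 3867 (chrX:50564813-50564935) of the transcript, both on the minus strand.

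Firre repeat: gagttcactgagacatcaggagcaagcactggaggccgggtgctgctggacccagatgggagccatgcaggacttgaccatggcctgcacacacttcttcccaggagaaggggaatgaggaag

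Malat1 lies on chromosome 19 at 5795690 to 5802672 on the minus strand, and had an FPKM of 341 in replicate 1 and 210 in replicate 2. Its mean of 275 put it at rank 3 of the 8714 lncRNAs and above 99.2% of the 23257 known genes of the second table. Malat1 made up 0.0965% and 0.0573% of the summed FPKM of the known genes in replicates 1 and 2. It was the only member in which the libraries lay far apart.

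Neat1 is the neighbour of Malat1 on chromosome 19, at 5824708 to 5845478 on the same strand, with 22.0 kb between the genes. Neat1 had an FPKM of 6.47 in replicate 1 and 7.10 in replicate 2, the lowest values among the members. Malat1 was 40.6-fold higher than Neat1 by the means, 52.6-fold in replicate 1 and 29.6-fold in replicate 2, so these adjacent genes lay at the top and the bottom of the 6.

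Tug1, on chromosome 11 at 3639785 to 3649673 on the minus strand, was the next after Malat1. It had an FPKM of 27.8 in replicate 1 and 27.5 in replicate 2, and held rank 22 among lncRNAs. Malat1 exceeded Tug1 9.95-fold by the means, 12.2-fold in replicate 1 and 7.64-fold in replicate 2. Tug1 in turn was 4.08-fold higher than Neat1.

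Pvt1, on chromosome 15 at 62037986 to 62378096 on the plus strand, had an FPKM of 9.82 in replicate 1 and 11.1 in replicate 2. Firre, on chromosome X at 50555744 to 50635321 on the minus strand, had 10.6 in replicate 1 and 9.99 in replicate 2. The libraries of Pvt1 and Firre overlapped, so these neighbours in the order (10.4 ± 0.883 and 10.3 ± 0.424, SD, n = 2) did not differ beyond their spread. Their genes differ widely in extent, with a span of 340111 bases for Pvt1 and 79578 for Firre.

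Miat, on chromosome 5 at 112213228 to 112229395 on the minus strand, had an FPKM of 8.40 in replicate 1 and 8.63 in replicate 2. Both values lay below those of Firre and Pvt1 and above those of Neat1. The order of the members was thus Malat1, Tug1, Pvt1 with Firre, Miat and Neat1, and apart from Pvt1 and Firre no member's libraries overlapped with those of the next. An FPKM is scaled to transcript length, so the order is one of levels per length, and it moves with the transcript lengths that the annotation gave each gene. In a bulk culture a low level in every cell and a high level in few cells cannot be told apart.

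**Figure D1:**
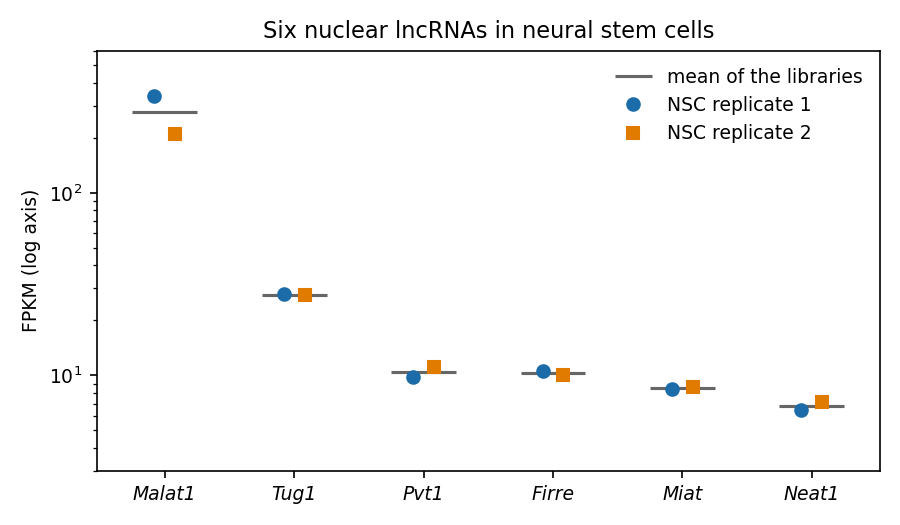
FPKM (log axis) of the 6 lncRNAs in NSC replicate 1 (circles) and NSC replicate 2 (squares), with the mean of the libraries as a bar. Malat1 stands at 341 and 210, and the remaining lncRNAs sit between 6.47 and 27.8 with their libraries close together.

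All 6 members were above FPKM 1 in both libraries, against 286 of all 8714 lncRNAs (3.28%), a comparison that carries the limit that the members are well-known RNAs named with earlier results in view. The median of the members' mean FPKM was 10.4, and that of all lncRNAs was 0.1, the lowest value of the table, at which 92.8% of lncRNAs stood in both libraries. Tug1 was above 99.8% of all lncRNAs, Pvt1 and Firre above 99.2%, Miat above 99.0% and Neat1 above 98.9%. For 958 lncRNAs the name, or a RefSeq synonym of it, is that of a known gene. Of these 958, 147 (15.3%) passed FPKM 1 in both libraries, and the members lay above 95.1% (Neat1) to 99.9% (Malat1) of them.

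Each of the 6 members also stood in the table of known genes with the same FPKM in both libraries within 1e-05, 5 under the same symbol and Firre under its older name 6720401G13Rik. The lncRNA values of the members are therefore no second estimate. The same was true of 569 of the 624 lncRNAs with a mean above 0.1, and of 245 of the 286 above FPKM 1 in both. Set against known genes, of which 47.7% were above FPKM 1 in both libraries and whose median was 0.695, Tug1 was above 89.7%, Pvt1 above 75.7%, Firre above 75.4%, Miat above 72.4% and Neat1 above 68.9%.

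**Figure D2:**
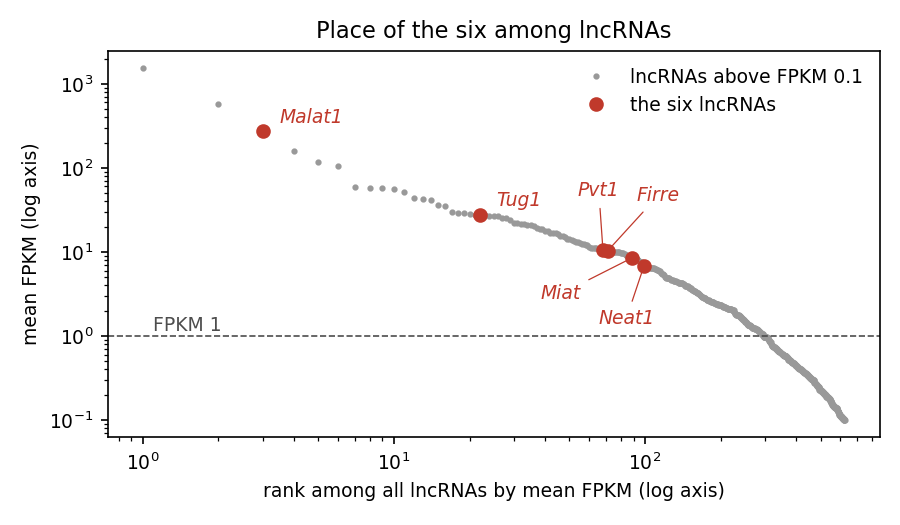
Mean FPKM (log axis) against rank among all 8714 lncRNAs (log axis), for the 624 lncRNAs with a mean above 0.1 (grey) and the 6 lncRNAs (red). Malat1 is at rank 3, Tug1 at 22 and the other members between ranks 68 and 99, all above the dashed line at FPKM 1.

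The lncRNAs beside the members in this order were mixed. The sole lncRNAs above Malat1 were one named by its coordinates, with an FPKM of 1411 and 1646 in replicates 1 and 2, and Gm28037 with 550 and 599. Directly below Malat1 came 2410006H16Rik with 162 and 159, and then Gm20427 with 117 and 116. Tug1 stood between a locus named by coordinates (28.4 and 27.1) and Snhg3, a host gene of small nucleolar RNAs (26.1 and 29.1). In the same way Neat1 came between AI854517 (6.55 and 7.89) and Snhg7, another such host gene (6.45 and 7.06). Pvt1 and Firre shared a stretch with Spata5l1 and Gm21989 above (means of 10.8 and 10.6), Gm21984 and a locus named by coordinates between them (both 10.4) and Gm11974 and Gm13375 below (10.3 and 10.2), and Miat followed linc1605 (8.78) and linc1462 (8.53). The libraries of Tug1, Pvt1, Firre, Miat and Neat1 overlapped with those of the lncRNAs directly above and below, so no gap separates these members from their neighbours in rank. With only 2 libraries of 1 condition, no pattern across samples exists by which other genes could be called similar to a member.

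The libraries differed more in Malat1 than in the other members. Malat1 was 1.62-fold higher in replicate 1, a log2 ratio of 0.70. The remaining 5 members differed 1.01-fold to 1.13-fold, 2 being higher in replicate 1 (Tug1 and Firre) and 3 in replicate 2 (Pvt1, Miat and Neat1). Dividing by the summed FPKM of known genes, which was 352990 in replicate 1 and 367131 in replicate 2, turned the log2 ratio of Miat to 0.02 from −0.04, so its direction depends on the scaling. The log2 ratio of Neat1 was −0.13, within the SD of 0.19 over known genes with a mean above FPKM 1, so its sign says little. The Neat1 value also joins its short and long forms. Whether 3′ ends or gene position bear on the difference in Malat1 was not tested.

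Differences as large as that of Malat1 were rare. Of 11185 known genes with a mean above FPKM 1, 43 (0.384%) differed over 1.5-fold, 20 of them higher in replicate 1 and 23 in replicate 2, and 28 differed at least as much as Malat1. Among the 296 lncRNAs with a mean above FPKM 1, 10 (3.38%) did so, 5 in each direction. The log2 ratios of these known genes had a median of −0.02 and an SD of 0.19, so Malat1 lay outside the bulk of the genes and the other 5 members within it.

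At high levels the libraries were closer still. Of 565 known genes with a mean above FPKM 100, Malat1 was the only one past 1.5-fold (1 of 565, 0.177%), and the SD of the log2 ratios was 0.11. The next largest folds there were those of Gm1821 (449 and 647 in replicates 1 and 2, 1.44-fold) and of Rpl15, a ribosomal protein gene (253 and 344, 1.36-fold). Both were higher in replicate 2 and Malat1 in replicate 1. The limit of FPKM 100 matters, since Rps27, another ribosomal protein gene, had a mean of 93.4 and a log2 ratio of 2.51. With 1 value per library there is no test of the difference in Malat1, and its cause was not tested.

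**Figure D3:**
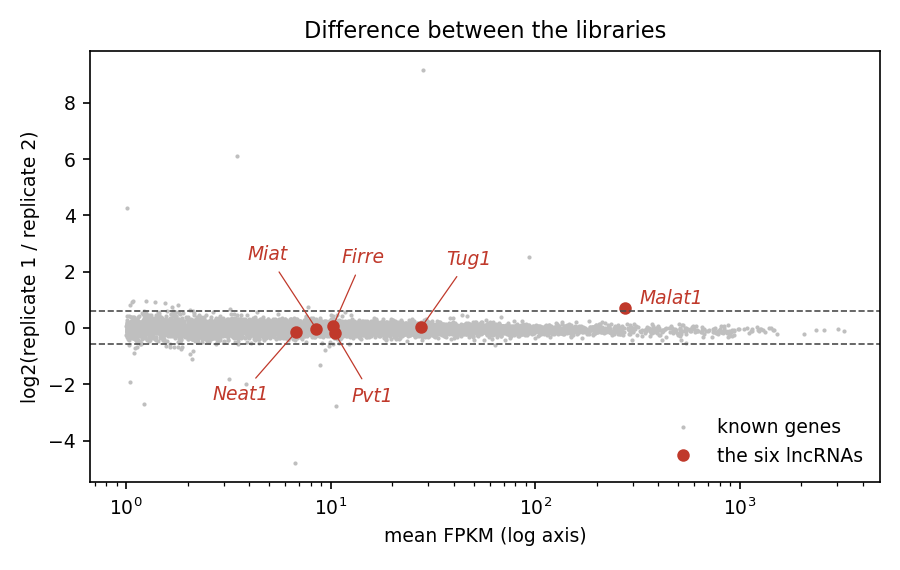
Log2 ratio of FPKM in replicate 1 over replicate 2 against mean FPKM (log axis), for the 11185 known genes with a mean above FPKM 1 (grey) and the 6 lncRNAs (red), with dashed lines at 1.5-fold in each direction. Malat1 at 0.70 lies above the upper line, and the other 5 lncRNAs lie near 0.

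Genes of proteins that work with these lncRNAs were read from the known gene table in 7 lists of 73 genes in all. Of these, 71 were above FPKM 1 in both libraries, beside 47.7% of all known genes, and none differed over 1.5-fold between the libraries. The lists were chosen by function, and many of their genes are used by most cells, so nothing particular to the lncRNAs follows from their levels. Counts past FPKM 10 are also given below. The share of all known genes past that level was not counted, but Firre, with a mean of 10.3, was above 75.4% of them.

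All 13 nuclear speckle genes exceeded FPKM 10 and had a median of 55.5. The highest were the splicing factor genes Srsf3 (149 ± 20.4, SD, n = 2) and Srsf2 (135 ± 8.71) and Snrnp70 (127 ± 9.52), which encodes a protein of the U1 particle, and the lowest was the splicing regulator Rbm25 (33.4 ± 1.28). No gene of this list differed more than 1.21-fold between the libraries, while Malat1, the RNA of the same bodies, differed 1.62-fold.

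All 14 paraspeckle genes also exceeded FPKM 10, and their median was 63.1. Hnrnpk, an RNA-binding protein gene known in human cells to be needed for paraspeckles, had 377 and 390 in replicates 1 and 2, and Nono, a core paraspeckle protein gene, had 182 ± 5.55. Cpsf6, whose product acts in forming the 3′ end of the short Neat1, was the lowest with 27.7 ± 0.596. Neat1, the scaffold itself, was at 6.78, below every protein gene of the list on the FPKM scale.

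The genes for the 3′ end processing of Malat1 were at moderate levels, with all 13 past FPKM 1, 9 past FPKM 10 and a median of 14.4. They include the subunits of RNase P, of which Rpp30 (23.9 ± 0.125), Pop5 (17.1 ± 0.562) and Pop4 (15.8 ± 1.17) were the highest and Rpp25 (1.23 ± 0.135) the lowest. The largest difference between the libraries in this list was 1.17-fold.

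All 11 genes of Polycomb repressive complex 2, which methylates histone H3, passed FPKM 1 and 7 of them FPKM 10, and the median was 15.1. The histone-binding subunits Rbbp7 (85.5 ± 1.95) and Rbbp4 (74.9 ± 6.06) led, and the methyltransferase Ezh2 had 40.6 ± 0.816 where its relative Ezh1 had 1.86 ± 0.0569.

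Of the 8 genes listed with Firre, all were above FPKM 10. Hnrnpu, whose protein binds the repeats of Firre, had 198 ± 10.1, the cohesin genes Rad21 and Smc1a had 97.4 ± 0.709 and 32.5 ± 0.162, and the cohesin gene Stag1 was lowest with 13.4 ± 0.0213. Of the 3 splicing factor genes listed with Miat, Qk had 253 ± 13.7 and Sf1 54.5 ± 0.0879, and Celf3, a gene known from neurons, stayed below FPKM 1 with 0.797 and 0.612 in replicates 1 and 2.

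In the Myc network 10 of 11 genes passed FPKM 1 in both libraries and 5 passed FPKM 10, and the median was 7.36. Myc had 34.8 ± 1.62, its partner Max 25.1 ± 0.139 and the antagonist Mxd4 19.8 ± 2.47, and Mycn was the lowest with 0.491 ± 0.0496.

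**Figure D4:**
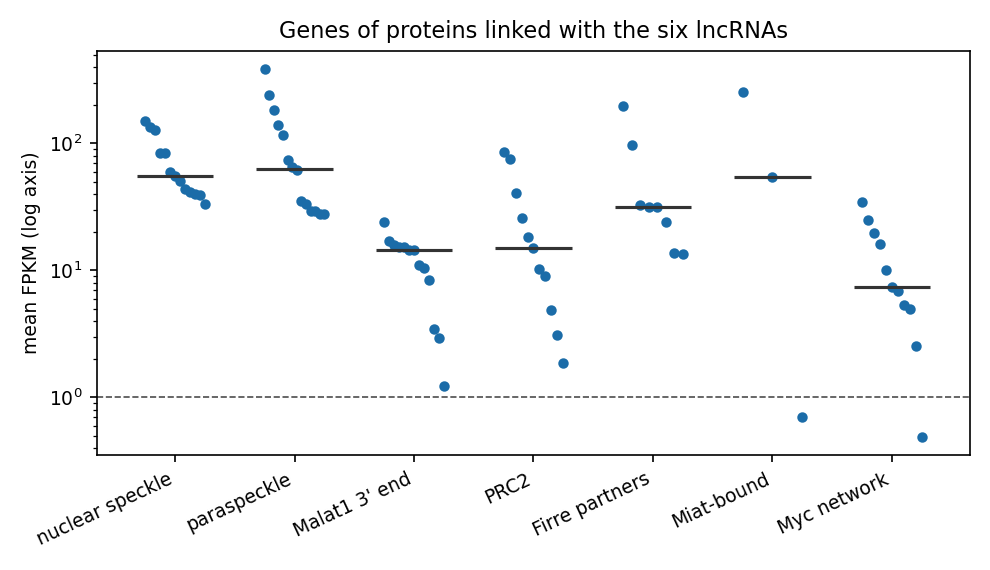
Mean FPKM of the libraries (log axis) for each gene of the 7 lists of protein genes, with the median of each list as a bar and a dashed line at FPKM 1. All genes lie above the line except Celf3 in the list for Miat and Mycn in the Myc network.

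The genes next to the members ranged between the lowest value of the table and high levels. On the side of higher coordinates, the nearest coding gene to both Malat1 and Neat1 is Frmd8, 47.0 kb from Malat1 and 4.22 kb from Neat1. Frmd8 had an FPKM of 35.5 and 34.0 in replicates 1 and 2, and any link with the difference in Malat1 was not tested.

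Pvt1 starts 47.6 kb from Myc, which had 36.0 and 33.7 in replicates 1 and 2, above Pvt1 in each library. On its other side the nearest coding gene, Gsdmc, lies 1398 kb away and was at 0.1 in both. The genes nearest to Firre, the olfactory receptor gene Olfr1324 (127 kb away) and Frmd7 (260 kb away), were at 0.1 in both libraries, as were 40.3% of all known genes. Miat has Cryba4, a lens crystallin gene, at 17.1 kb (0.1 in both libraries) and Mn1 at 756 kb (2.08 and 1.74). Tug1 has Osbp2 at 54.1 kb (0.179 and 0.188) and Smtn at 99.2 kb (11.5 and 10.2).

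The reads do not mark strand, so transcripts on opposite strands cannot be told apart where they overlap. Tug1 overlaps the coding gene Morc2a on the other strand by 483 bases, and Morc2a had an FPKM of 15.8 and 16.0 in replicates 1 and 2. Over 13935 bases Miat overlaps Gm26953 on the other strand, which was listed at 0.1 in both libraries. Pvt1 holds the pseudogene H2afy3 on the other strand, also at 0.1. Firre and Neat1 had no annotated gene on the opposite strand, and in Malat1 a short unsorted locus, Gm37376, lies opposite 453 bases.

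For Malat1, Tug1, Miat and Firre the base composition from 250 bases before to 50 after the start was taken from RefSeq promoters of build GRCm38.p6. The promoter of Tug1 was 71.3% GC with 37 CG pairs, which is more CG than 94.7% of the 32851 promoters of that table. Miat had 64.3% GC with 25 CG pairs and Firre 62.7% with 12. Malat1 had 47% GC with 10 CG pairs, below the median of 52.7% GC though above the median of 7 pairs. Its GC content was the lowest of these 4 members, and Neat1 and Pvt1 had no entry. The windows of Tug1 (chr11:3648765-3649064) and Miat (chr5:112228899-112229198) lay inside the genes as GENCODE places them. They therefore belong to starts other than the outermost ones.

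The NSC markers were expressed, but so were the astrocyte markers, so these lists do not tell NSCs from cells like astrocytes. All 10 NSC markers were above FPKM 10, led by Fabp7 (2055 ± 220), Vim (1218 ± 18.1) and Slc1a3 (432 ± 7.69), with Pax6 lowest (11.3 ± 0.447). All 6 microglia markers were at 0.1 in both libraries, and of 6 endothelial markers 5 were at 0.1 and Kdr had 0.188 ± 0.0696. Of 6 astrocyte markers all were above FPKM 1 in both libraries and 3 had a mean above FPKM 10. The highest was Aldoc (223 ± 15.1) and the lowest S100b (1.40 ± 0.0800). In the oligodendrocyte lineage 5 of 6 were above FPKM 1 in both libraries, up to Cspg4 (8.74 ± 0.120), with Mog at 0.1. Of 6 neuron markers 3 were above FPKM 1 in both libraries, up to Snap25 (10.5 ± 0.631), with Stmn2 at 0.1. The summed FPKM in replicates 1 and 2 was 3886 and 4161 for the NSC markers, though 1986 and 1950 without Fabp7, and 6 of the 10 were higher in replicate 1. It was 19.4 and 19.9 for the neuron markers, 308 and 329 for the astrocyte markers, 17.8 and 18.1 for the oligodendrocyte lineage markers and 0.738 and 0.639 for the endothelial markers. The part of these markers in the difference of Malat1 between the libraries was not tested.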

How the data were processed

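Poly(A)+ RNA of 2 NSC libraries was sequenced as paired reads without strand. By the processing notes of the submitters and the study's methods, the authors aligned reads to mm10 with TopHat2 2.0.11 and Bowtie2 2.2.2 and computed FPKM with Cufflinks 1.3.0 on lncRNAs and UCSC known genes. The deposited FPKM have no value below 0.1. In the study's methods, lower FPKM were raised to 0.1 for fold calculations. A value of 0.1 here may therefore be a floor and not a measured level. Without read counts the depth of these libraries stayed unknown and no counting interval could be given.

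Levels were described by library, mean and SD; a share below a member splits ties evenly. The libraries were compared by log2 ratio without pseudocount. The named genes are the members, the 3 highest and the lowest gene of each list, the nearest coding gene on each side and the lncRNAs adjacent in rank; Gm1821, Rpl15, Rps27 and the overlapping genes were named after their values were seen. Of the genes that this rule names, 2 are not reported here. Members and lists were chosen with earlier results of these data known. Mycl was read under its older name Mycl1. Coordinates and transcripts are from GENCODE M21. Python 3.11.15, NumPy 2.4.6, pandas 2.3.3 and matplotlib 3.10.9 were used, and the statistics were tested on simulated data.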

Additional observations from a re-analysis of the deposited data

How the results depend on the processing

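The count of members above the threshold in both libraries was also 6 at FPKM 5. It was 6 as well at FPKM 0.1 and with each library left out. Those settings could not lower it, since all 6 were above FPKM 1 in both libraries. Of 134 alternatives run, 118 stayed within the limits set for a change, 15 went past them and 1 turned a direction. The limits were about the spread between the libraries or between genes for values, and 1.5 times for counts. The turned direction was that of the log2 ratio of Miat, 0.0177 when divided by the summed FPKM of known genes. Some of the 118 could not have changed, such as the members' levels read from the known genes, which are the same values. The tally is therefore no measure of stability. Among the 624 lncRNAs with a mean above 0.1 the members lay above 84.2% (Neat1) to 99.6% (Malat1). The comparison with lncRNAs that share a name or synonym with a known gene was chosen after seeing the data. The log2 ratio of Malat1 ranged between 0.69 and 0.75 over the pseudocounts and scalings tried. No paired analysis was possible because both libraries belong to 1 condition. FPKM without counts limit what low values can show, and 2 libraries limit every SD.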
